A study of Mus musculus with 12 samples.

Results

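The genes described are the 7 subunits of the transcription factor AP-1 that carry the Fos and Jun names, 4 of the Fos family (Fos, Fosb, Fosl1 and Fosl2) and 3 of the Jun family (Jun, Junb and Jund), among 17576 genes in the expression table. They were chosen by family membership, at a time when their levels in these libraries were already known, so their levels and differences are a description, their calls from a fit over all genes stand beside the share of all genes called, and no p-value is printed for them. The cells were of the mouse line C18-4, derived from spermatogonial stem cells (strain given as IRC mouse), and RNA sequencing of total RNA gave 12 libraries in 4 groups of 3. The group 8276OV received a virus for overexpression of the long noncoding RNA lncRNA8276, and 8276KD a virus for its inhibition. The control groups are labelled 5NC and 3NC, names that the labels do not expand. The design text names 5NC next to overexpression and 3NC next to knockdown, and each treated group was compared with that control. All 12 libraries come from the 1 cell line, and no label says whether the libraries within a group are from separate cultures, so any p-value measures the spread among these libraries, which may be technical. The lncRNA8276 transcript was not analysed here.

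AP-1 is a dimer. Jun proteins can pair with each other or with a Fos protein through a leucine zipper, whereas Fos proteins need a Jun partner to bind DNA, at the sequence TGAGTCA (the TPA response element) or the related cAMP response element TGACGTCA. Fos, Fosb, Jun and Junb are classic immediate early genes, switched on within minutes by growth factors and stress through ERK, JNK and p38 kinases, while Jund is transcribed steadily in most cells. Fosl1 (Fra-1) and Fosl2 (Fra-2) lack the strong activation domain of Fos and Fosb, and Fosl1 is itself a target of AP-1 and of ERK signalling. In spermatogonial stem cell cultures, Fos is known as a gene that GDNF signalling raises.

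The genes lie on 6 chromosomes of the mouse genome (GRCm38 coordinates, GENCODE M21). The Fos genes have 4 exons each in their longest transcript, with Fos (NCBI gene 14281) on chr12:85473890-85477273 (+ strand), Fosb (14282) on chr7:19302696-19310051 (- strand), Fosl1 (14283) on chr19:5447547-5455946 (+ strand) and Fosl2 (14284) on chr5:32135801-32157842 (+ strand). The Jun genes are single-exon genes in theirs, with Jun (16476) on chr4:95049034-95052222 (- strand), Junb (16477) on chr8:84974484-84978718 (- strand) and Jund (16478) on chr8:70698949-70700616 (+ strand).

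The 250 bases before the RefSeq transcription start (GRCm38.p6) are shown for Fos, Jun and Junb, the 3 tested members whose group means had the same order (3NC, 5NC, 8276KD, 8276OV from high to low). Fosb, which was too low to be tested, had that order too and is not shown. The Fos promoter is at chr12:85473640-85473889 (+ strand), that of Jun at chr4:95052223-95052472 (- strand) and that of Junb at chr8:84978749-84978998 (- strand), each read 5′ to 3′ on the gene's strand. Capitals mark matches to the core of the cAMP response element, TGACG, to the Jun variant of the TPA response element, TGACATCA, and to the TATA box, TATAAA.
Fos promoter: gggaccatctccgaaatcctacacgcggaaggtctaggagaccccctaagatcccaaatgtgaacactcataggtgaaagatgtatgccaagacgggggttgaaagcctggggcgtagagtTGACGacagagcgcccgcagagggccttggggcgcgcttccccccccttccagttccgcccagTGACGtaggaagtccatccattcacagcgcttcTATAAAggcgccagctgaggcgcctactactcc
Jun promoter: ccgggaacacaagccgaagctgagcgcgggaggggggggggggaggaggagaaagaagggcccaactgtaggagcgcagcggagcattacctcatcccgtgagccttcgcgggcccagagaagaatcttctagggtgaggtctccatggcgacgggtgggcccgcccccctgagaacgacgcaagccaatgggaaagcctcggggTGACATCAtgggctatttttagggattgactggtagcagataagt
Junb promoter: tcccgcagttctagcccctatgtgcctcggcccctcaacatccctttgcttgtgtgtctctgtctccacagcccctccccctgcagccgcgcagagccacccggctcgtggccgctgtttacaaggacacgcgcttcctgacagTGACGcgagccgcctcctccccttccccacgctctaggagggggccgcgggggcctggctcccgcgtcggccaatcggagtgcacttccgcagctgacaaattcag
Counted back from the start, Fos had TGACG at bases -129 to -125 and -66 to -62 and a TATA box at -33 to -28, Jun had TGACATCA at -45 to -38, and Junb had TGACG at -106 to -102. In the 6 members with a RefSeq promoter, Fosb also had TGACG, at -60 to -56, and the windows of Fosl2 and Jund held none of the motifs searched. These 2 windows precede a start other than that of the gene spans above. That of Fosl2 (chr5:32136222-32136471) lies inside the span, and that of Jund (chr8:70697489-70697738) ends before its span begins, so they say nothing of the starts given there. The search covered both strands, except for the TATA box, which was read on the gene's strand. It also took in TGAGTCA, TGACGTCA (which contains TGACG) and the CArG box bound by serum response factor. None of these 3 matched a member within the 250 bases, and sites further upstream were not searched. Among 32851 promoters cut to the same length, 17.8% held TGACG, 2.93% TGACATCA, 7.59% TATAAA, 4.46% TGAGTCA, 1.55% TGACGTCA and 1.47% a CArG box. A match is a string of letters and does not show binding.

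Levels were read as FPKM (fragments scaled by transcript length and library total), a scale on which genes can be compared. Between 10929 and 11165 genes reached 1 FPKM in a library. The steps between the lowest values put the libraries at about 11600000 to 12900000 fragments each, if the lowest step is 1 fragment. Pearson's r of log2(FPKM + 1) across genes was 0.997 to 0.999 between libraries of a group and 0.979 to 0.995 between groups. Of 20 germ cell markers in the table, 16 were below 1 FPKM in all 12 libraries, the germ cell genes Ddx4, Dazl, Pou5f1, Nanos2 and Mael among them and at or near 0. Gfra1 (0.01 to 0.17 FPKM), Ret (0 to 0.01 FPKM) and Zbtb16 (0 to 0.04 FPKM) were also among these 16. Those above were Uchl1 (73.0 to 139.25 FPKM), Tex19.1 (55.78 to 124.75 FPKM) and Etv5 (2.26 to 7.89 FPKM), with Id4 at 0.46 to 2.09 FPKM. Of 7 Sertoli markers 3 were at 1 FPKM or more in all libraries, Wt1 (up to 62.8 FPKM), Gata4 (3.25 to 6.77 FPKM) and Clu (2.40 to 7.31 FPKM), with Sox9, Amh and Dmrt1 at or near 0. The summed level of the germ cell markers was 133 to 153.4 FPKM in 8276OV, 161.6 to 174.8 in 5NC, 231 to 271.1 in 8276KD and 186.6 to 193.3 in 3NC, nearly all of it from Uchl1 and Tex19.1. The summed level of the 7 myoid and fibroblast markers was 213.2 to 218.9 FPKM in 8276OV, 196 to 204 in 5NC, 121.8 to 129.4 in 8276KD and 101.1 to 104.2 in 3NC. This order was that of Dcn, at 135.95 to 148.66 FPKM in 8276OV and 20.85 to 22.24 FPKM in 3NC. Acta2 was also higher in 8276OV (11.58 to 14.17 FPKM) than in 3NC (8.16 to 9.1), but highest in 5NC (19.51 to 23.1). Des (4.28 to 4.81 FPKM in 8276OV, 10.98 to 11.73 in 3NC), Cnn1 (1.54 to 2.26 and 4.63 to 5.21) and Pdgfra (0.63 to 0.81 and 1.24 to 1.40) were instead lower in 8276OV than in 3NC. Tagln stayed between 44.01 and 57.73 FPKM in all libraries, and Myh11 was near 0. The part of these sums in the AP-1 levels was not tested, and in bulk RNA fewer cells of a type and less RNA per cell cannot be told apart.

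Fosl1 had by far the widest range of the 7 genes, 29.3-fold between its highest and lowest library. It had 1.42, 1.09 and 2.18 FPKM in the 8276OV libraries and 1.61, 1.98 and 1.58 FPKM in the 5NC libraries. It had 7.75, 9.77 and 7.60 FPKM in the 8276KD libraries and 31.18, 29.78 and 31.94 FPKM in the 3NC libraries. The libraries of 3NC and of 8276KD each stood apart from all others, whereas 8276OV and 5NC overlapped. The Fosl1 mean in 5NC was thus 0.0557 of that in 3NC, although both are control groups. The mean in 8276KD was 0.270 of that in 3NC and 4.86 times that in 5NC, so the direction of Fosl1 after knockdown depended on the control it was set against.

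**Figure D1:**
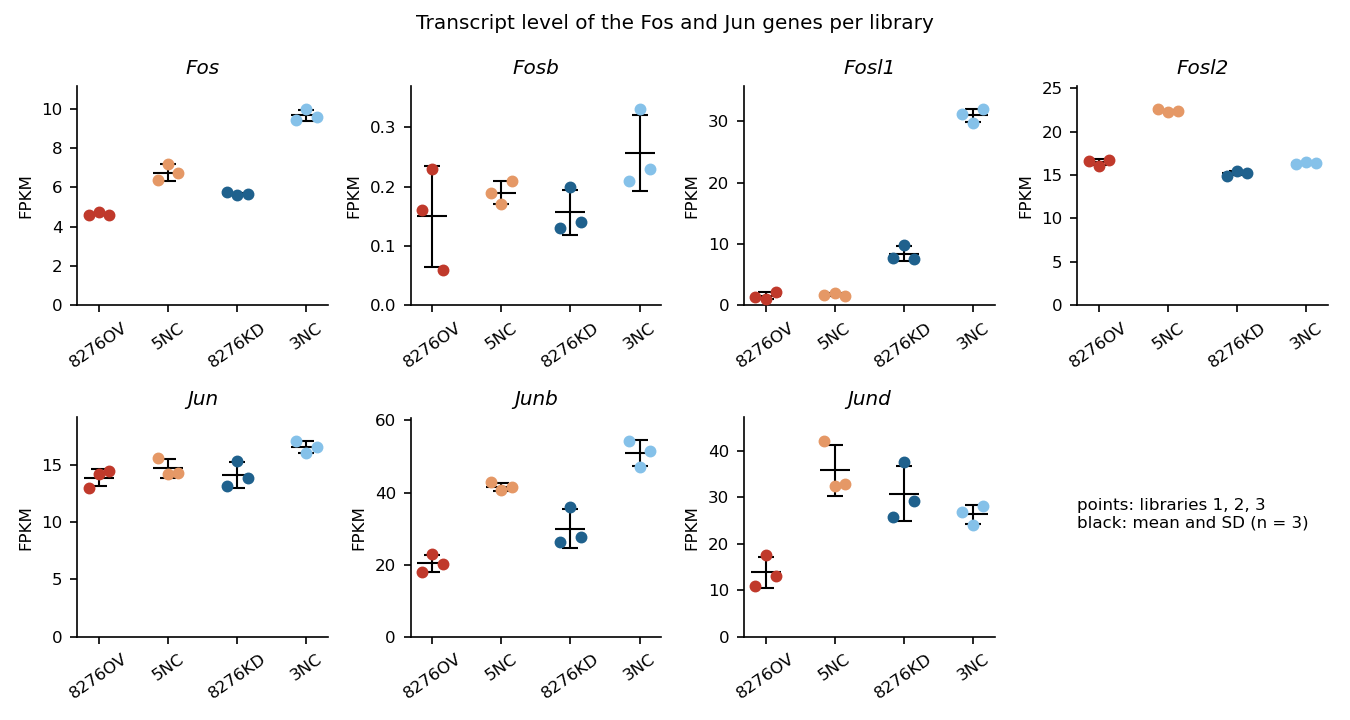
FPKM of each Fos and Jun gene in the 12 libraries, with a panel per gene and its own linear axis from 0; points are libraries and black lines the mean and SD of 3. Fosl1 stands between 29.78 and 31.94 FPKM in 3NC and below 10 in the other groups, while Junb and Jund are lowest in 8276OV.

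Fos, the founding member of the family, had a narrower range of 2.17-fold. It had 4.61, 4.73 and 4.60 FPKM in 8276OV and 6.36, 7.19 and 6.71 FPKM in 5NC. It had 5.75, 5.62 and 5.65 FPKM in 8276KD and 9.46, 9.97 and 9.58 FPKM in 3NC. No 2 groups overlapped, and from high to low the order was 3NC, 5NC, 8276KD, 8276OV. Each treated group was below both controls.

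Fosl2, which shares with Fosl1 the lack of a strong activation domain, had a range of 1.51-fold. It had 16.62, 16.07 and 16.79 FPKM in 8276OV and 22.56, 22.32 and 22.35 FPKM in 5NC. It had 14.95, 15.49 and 15.25 FPKM in 8276KD and 16.32, 16.47 and 16.42 FPKM in 3NC. The 5NC libraries stood above all others, 8276OV and 3NC overlapped, and 8276KD lay just below 3NC.

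Fosb was close to the limit of detection, at 0.16, 0.23 and 0.06 FPKM in 8276OV, 0.19, 0.17 and 0.21 in 5NC, 0.13, 0.2 and 0.14 in 8276KD, and 0.21, 0.33 and 0.23 in 3NC. By the implied depth these values stand for 2.72 to 15.6 fragments per library. Neighbouring groups in its order overlapped, and it did not reach the minimum for testing (1 FPKM in 3 libraries), so 6 of the 7 genes entered the fits.

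Jun, whose protein forms the classic AP-1 dimer with Fos, was the steadiest member, with a range of 1.31-fold. It had 13.01, 14.21 and 14.41 FPKM in 8276OV and 15.61, 14.17 and 14.26 FPKM in 5NC. It had 13.17, 15.32 and 13.83 FPKM in 8276KD and 17.07, 16.03 and 16.58 FPKM in 3NC. The 3NC libraries were above all others by a small margin (15.61 FPKM in the highest 5NC library, 16.03 FPKM in the lowest 3NC library), and the other 3 groups overlapped.

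Junb, which can oppose Jun in growth control, was lowest with overexpression. It had 18.04, 22.88 and 20.13 FPKM in 8276OV and 42.85, 40.6 and 41.41 FPKM in 5NC. It had 26.28, 36.11 and 27.61 FPKM in 8276KD and 54.31, 47.12 and 51.43 FPKM in 3NC. No 2 groups overlapped, and the order was the same as for Fos. The mean of 8276OV was 0.489 of that of 5NC, and the mean of 8276KD was 0.589 of that of 3NC.

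Jund, which restrains proliferation in fibroblasts, differed from Junb in its order of groups. It had 10.98, 17.48 and 13.02 FPKM in 8276OV and 42.09, 32.43 and 32.86 FPKM in 5NC. It had 25.83, 37.47 and 29.09 FPKM in 8276KD and 26.88, 24.11 and 28.01 FPKM in 3NC. Only 8276OV stood apart from all other groups, with a mean 0.386 of that of 5NC, and 8276KD overlapped with both controls.

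The Fos family differed in its make-up between the groups. Summed over the 4 Fos genes, the level was 22.9 ± 0.756 FPKM in 8276OV and 31.1 ± 0.509 FPKM in 5NC, and 29.4 ± 1.43 FPKM in 8276KD and 57.3 ± 0.817 FPKM in 3NC (SD, n = 3 each). Fosl2 made up 72.2 ± 0.989% of that sum in 8276OV and 72.1 ± 1.5% in 5NC. Its share was 51.8 ± 1.76% in 8276KD and 28.6 ± 0.455% in 3NC. The share of Fosl1 was 6.79 ± 2.20% in 8276OV and 5.54 ± 0.622% in 5NC, and 28.4 ± 2.68% in 8276KD and 54.0 ± 1.20% in 3NC. Fosl1 was thus the most abundant Fos transcript in 3NC and Fosl2 in the other groups. Fos made up 20.4 ± 0.966% in 8276OV and 21.7 ± 1.0% in 5NC, and 19.3 ± 1.08% in 8276KD and 16.9 ± 0.649% in 3NC, and Fosb at most 1.04% in any library.

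**Figure D2:**
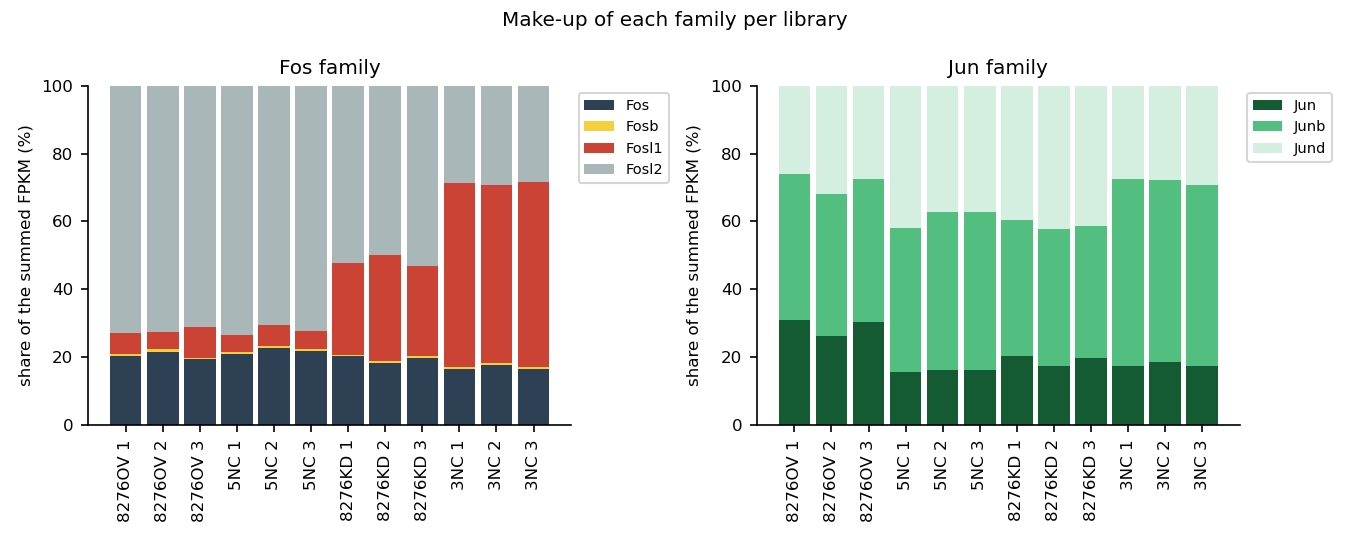
Share of each gene in the summed FPKM of its family (percent, linear axis, values as deposited), with a stacked bar per library. Fosl1 is the largest Fos share in the 3NC libraries (54.0% on average) and Fosl2 in the other 9; in the Jun family the share of Jun is largest in 8276OV (29.1%).

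Within the Jun family, Junb was the most abundant transcript in 8276OV (42.4 ± 0.50% of the family sum), in 5NC (45.3 ± 2.34%) and in 3NC (54.3 ± 0.888%). In 8276KD the shares of Jund (41.0 ± 1.31%) and Junb (40.01 ± 0.767%) differed by less than their spread. Jun made up 29.1 ± 2.67% in 8276OV and 16.0 ± 0.384% in 5NC, at levels that overlapped. The summed Jun family level was 48.1 ± 6.28 FPKM in 8276OV and 92.1 ± 7.35 FPKM in 5NC. It was 74.9 ± 12.4 FPKM in 8276KD and 93.8 ± 5.81 FPKM in 3NC. The ratio of the Jun family sum to the Fos family sum was 2.11 ± 0.323 in 8276OV, 2.97 ± 0.272 in 5NC, 2.54 ± 0.295 in 8276KD and 1.64 ± 0.0886 in 3NC (SD, n = 3 each). Sums, shares and ratios of both families rest on values as deposited, not corrected for the GC content of transcripts. That correction changed the differences of Jun, Junb and Jund between 8276OV and 5NC, as given below.

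With overexpression set against its control, 4 of the 6 members that entered the fit were lower in 8276OV than in 5NC, none was higher, and Fosl1 and Jun were not called. Called means an adjusted p under 0.05 in limma, over the 11360 genes tested on the log2(FPKM + 1) scale, which understates the change of low genes. Of all these genes, 44.1% were called lower and 30.3% higher, and nothing is read from the members' count beside these shares. The log2 fold change was -1.32 ± 0.15 for Jund, -1.003 ± 0.10 for Junb, -0.46 ± 0.056 for Fos and -0.42 ± 0.043 for Fosl2 (SE). It was -0.11 ± 0.13 for Fosl1, whose 8276OV libraries ranged wider than their difference from 5NC, and -0.076 ± 0.064 for Jun. Without the third 8276OV library (2.18 FPKM) Fosl1 was called lower, at -0.27. The median of the 6 was -0.44, against -0.088 for all genes tested.

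Differences between 8276OV and 5NC moved with the GC content of transcripts. Across the 11197 tested genes with a known transcript, the log2 fold change of 8276OV against 5NC fell with GC content (Spearman's rho = -0.789 across genes, which are not independent replicates), with a slope of -0.53 per 10 percentage points. The members are rich in GC: 67.1% for Jund, above 99.9% of the genes tested, 62.6% for Junb (above 98.8%), 58.5% for Fosl1, 56.0% for Fosb, 55.5% for Jun, 53.1% for Fosl2 and 51.9% for Fos, where the median was 49.7%. With each library corrected for GC content, the value was -0.42 for Jund, -0.22 for Junb, -0.24 for Fos and -0.12 for Fosl2, all still called lower. Fosl1 (0.51) and Jun (0.38) were then called higher. Over all genes, the share of called genes that were higher was 40.8% as deposited and 50.8% after the correction (3115 higher and 3020 lower of 11197). The correction also gives every library the same mean log2 level, so a more even split is in part built in and is not read as an effect of GC content. The part of GC content in these levels was not tested.

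**Figure D3:**
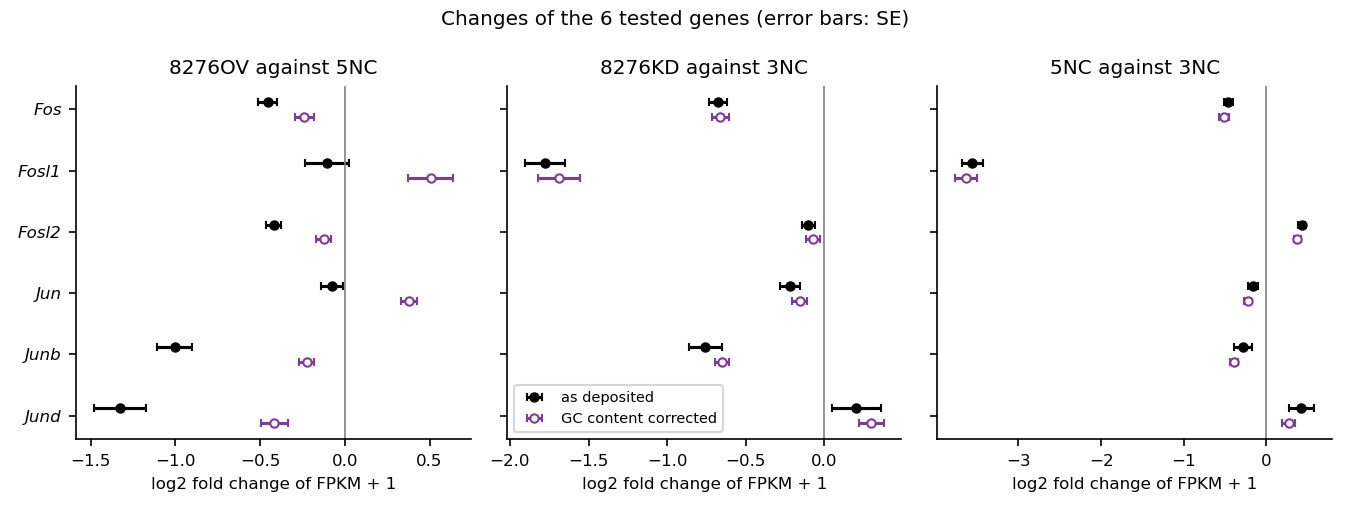
Log2 fold change of FPKM + 1 with its SE for the 6 tested genes in 3 comparisons, as deposited (filled points) and with each library corrected for transcript GC content (open points); each panel has its own linear axis. For 8276OV against 5NC the correction moves Junb to -0.22 and Jund to -0.42 and takes Fosl1 and Jun above 0, and the shifts in the other panels are smaller.

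Libraries of 1 group also differed in this trend. The slope of a library's log2 level on GC content, relative to the mean of all libraries, was -0.462, -0.237 and -0.355 per 10 points in the 8276OV libraries and 0.198, 0.148 and 0.184 in the 5NC libraries. It was -0.0402, 0.184 and -0.00192 in the 8276KD libraries and 0.127, 0.103 and 0.151 in the 3NC libraries. The 3 libraries of a group stood in the order of these slopes in 4 of 4 groups for Jund and 3 for Junb. The count was 2 for Jun, 2 for Fosl2, 1 for Fosl1, 1 for Fosb and 0 for Fos. With 3 libraries a group such an order can arise by chance, and a link between level and slope was not tested. The second 8276KD library, which had the highest Junb and Jund of its group, also had its highest slope.

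**Figure D4:**
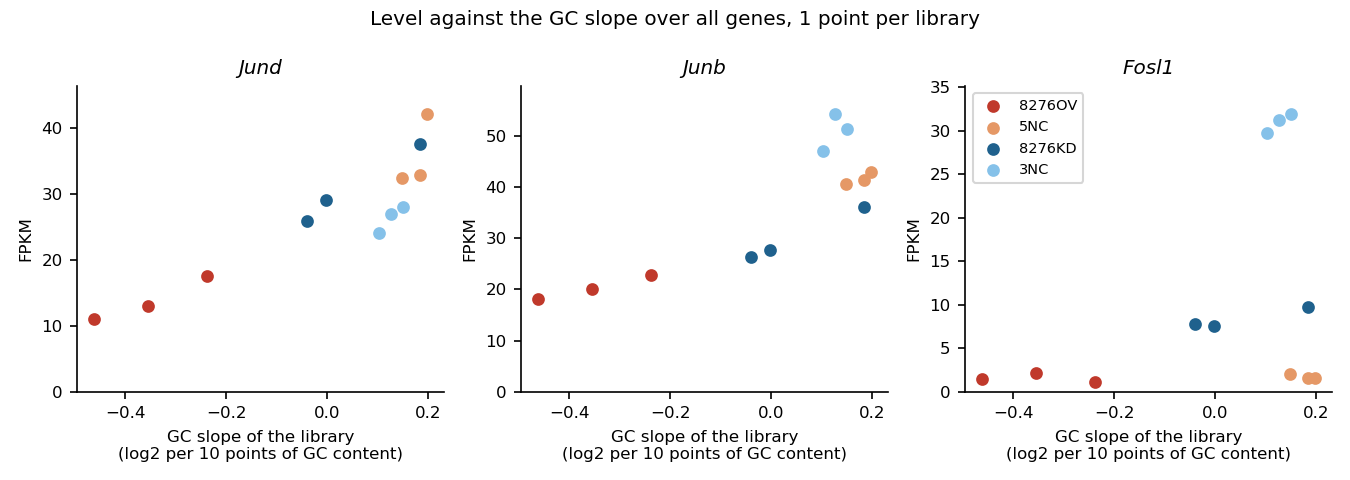
FPKM of Jund, Junb and Fosl1 (linear axes) against the slope of the library's log2 level on transcript GC content over all genes, with a point per library coloured by group. Jund and Junb are lowest in the 3 libraries with the lowest slopes (8276OV, -0.462 to -0.237). Fosl1 differs between 5NC and 3NC at similar slopes, and no link between level and slope was tested.

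With knockdown set against its control, 4 of the 6 tested members were lower in 8276KD than in 3NC and none was higher, where 19.5% of all genes were called lower and 20.0% higher. Fosl1 differed by -1.78 ± 0.13 on the log2 scale, Junb by -0.76 ± 0.10, Fos by -0.68 ± 0.056 and Jun by -0.22 ± 0.064 (SE). The call of Jun was lost without the first 8276KD library (-0.17), without the third (-0.21) or without the first 3NC library (-0.20). Fosl2 (-0.10 ± 0.043) and Jund (0.20 ± 0.15) were not called. The median of the 6 was -0.45, against -0.0048 for all genes tested. The trend with GC content was weaker here (rho = -0.220 across genes, -0.079 per 10 points), and after correction the values were -1.69 for Fosl1, -0.65 for Junb, -0.66 for Fos and -0.16 for Jun, with Jund then called higher, at 0.30.

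Between the control groups, all 6 tested members were called, 2 higher and 4 lower in 5NC than in 3NC, where 30.6% of all genes were called higher and 25.9% lower. Fosl1 differed by -3.56 ± 0.13 on the log2 scale, Fos by -0.46 ± 0.056, Junb by -0.28 ± 0.10 and Jun by -0.16 ± 0.064, while Fosl2 (0.43 ± 0.043) and Jund (0.42 ± 0.15) were higher in 5NC (SE). The calls of Fosl1, Fos and Fosl2 held with any 1 library left out. Those of the 3 Jun genes did not. Jun ranged between -0.21 and -0.14 and lost its call in 5 of 6 such fits, all but the one without the first 5NC library. Junb ranged between -0.34 and -0.24 and lost its call in 5 of 6, all but the one without the second 3NC library. Jund ranged between 0.30 and 0.49 and lost its call without the first 5NC library or the first or second 3NC library. Corrected for GC content, all 6 kept direction and call, with Fosl1 at -3.63. Of all 11197 genes, 3493 were then called higher and 3730 lower.

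Each treated group was also set against the other control, which shares libraries with the comparisons above. Against 3NC, 8276OV had 5 of 6 members lower and none higher, where 41.7% of all genes were called lower and 33.5% higher. The log2 fold changes were -3.66 for Fosl1, -1.29 for Junb, -0.92 for Fos, -0.90 for Jund, -0.24 for Jun and 0.0072 for Fosl2, the last not called. After GC correction Jund was not called there (-0.15), and Jun (0.15) and Fosl2 (0.25) were called higher. Against 5NC, 8276KD had 1 member higher and 3 lower, where 24.7% of all genes were called higher and 30.5% lower. Fosl1 was higher at 1.78, Fosl2 (-0.53), Junb (-0.47) and Fos (-0.22) were lower, and Jund (-0.22) and Jun (-0.055) were not called. Fos and Junb were the members called lower in each treated group against either control.

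Fosl1 and Junb overlap a protein-coding neighbour on the other strand, and the sources used here do not say whether counting used strand. Overlaps were measured between whole gene spans, introns included, and how much of them lies in exons was not examined. Fosl1 overlaps Ccdc85b by 2767 bases. Ccdc85b was at 2.02 ± 0.484 FPKM in 8276OV and 5.08 ± 0.323 FPKM in 5NC, and at 6.55 ± 1.25 FPKM in 8276KD and 9.50 ± 0.345 FPKM in 3NC (SD, n = 3 each), so it too was highest in 3NC but with a smaller span than Fosl1. Junb overlaps Prdx2, a peroxiredoxin, by 351 bases, and Prdx2 stayed between 204.3 ± 3.18 FPKM in 8276KD and 228.7 ± 5.61 FPKM in 5NC. The antisense genes Junos (689 bases over Jun) and Gm11175 (919 bases over Jund) were not analysed here. Reads of overlapping stretches cannot be told apart without strand.

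Genes like Fosl1 were found by the root mean square difference of centred log2(FPKM + 1) values over the 12 libraries. Among the nearest were Etv4 (0.427), an ETS transcription factor, Hmga1b (0.506) and Hmga1 (0.520), which are near-identical copies of a chromatin protein gene and may share reads, and Bnip3 (0.515), a mitophagy receptor. Etv4 averaged 4.42 ± 0.322 FPKM in 8276OV and 3.59 ± 0.169 in 5NC, and 16.1 ± 1.11 FPKM in 8276KD and 31.3 ± 1.02 in 3NC. Bnip3 averaged 18.9 ± 1.55 FPKM in 8276OV and 21.3 ± 0.848 in 5NC, and 49.2 ± 4.51 FPKM in 8276KD and 113.9 ± 3.51 in 3NC (SD, n = 3 each). These 4 genes thus had 3NC highest and 8276KD next, as Fosl1 did.

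**Figure D5:**
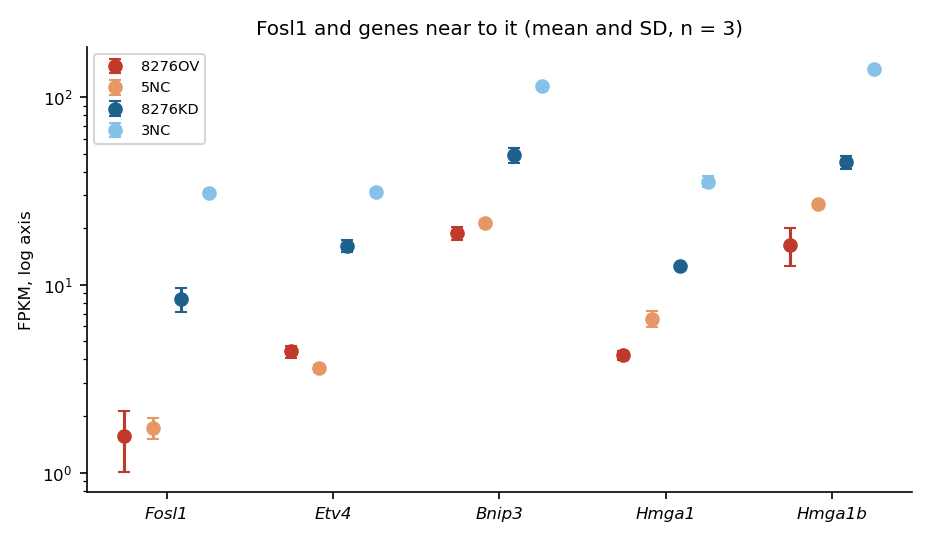
Mean FPKM with SD (n = 3) in each group for Fosl1 and 4 of the genes with the smallest root mean square difference from it, on a log axis. In every gene shown 3NC is highest and 8276KD next, with 8276OV and 5NC below (Etv4, 4.42 and 3.59 FPKM).

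The genes nearest to Junb were Thap3 (0.119), Fau (0.123), Rpl18 (0.123), Zbtb7b (0.126) and Enkd1 (0.127). Fau and Rpl18 encode parts of the ribosome and have processed copies in the genome that may share reads. Those nearest to Jund were H1fx (0.1002), a linker histone, Tpgs1 (0.126), Rex1bd (0.134), Ube2s (0.134) and Metrn (0.140). H1fx averaged 14.04 ± 3.46 FPKM in 8276OV and 37.1 ± 4.17 FPKM in 5NC, and 28.1 ± 6.73 FPKM in 8276KD and 26.3 ± 1.49 FPKM in 3NC (SD, n = 3 each), close to the levels of Jund itself. Only members whose group means spanned more than 1 on the log2 scale (3.66 for Fosl1, 1.29 for Junb and 1.32 for Jund) were searched. The searches used values not corrected for GC content. In 8276OV against 5NC, correction moved H1fx from -1.36 to -0.36 and Fau from -0.94 to -0.25. All genes named as nearest to Junb and Jund differed less after it, except Ube2s, which went from -1.25 to -1.44. Of the genes near Fosl1, which itself moved from -0.11 to 0.51, Etv4 moved from 0.24 to 0.86 and Bnip3 from -0.17 to -0.48. Hmga1b moved from -0.70 to -0.085 and Hmga1 from -0.54 to 0.19. The part of GC content in these likenesses was not tested.

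Genes reported to have AP-1 sites in their promoters were counted next. Of 50 listed, 47 were in the table and 35 were tested. In 5NC against 3NC, 6 were higher, 21 lower and 8 not called (all genes 30.6% higher and 25.9% lower), with a median log2 fold change of -0.36 where all genes had 0.022. In 8276KD against 3NC, 5 were higher, 18 lower and 12 not called (all genes 20.0% higher and 19.5% lower), with a median of -0.20 where all genes had -0.0048. With 5NC as the control the balance in 8276KD was the other way, with 15 higher, 10 lower and 10 not called (all genes 24.7% higher and 30.5% lower) and a median of 0.11 where all genes had -0.031, so the direction of the targets after knockdown depended on the control. In 8276OV against 5NC, 10 were higher, 15 lower and 10 not called (all genes 30.3% higher and 44.1% lower), with a median (-0.12) close to that of all genes (-0.088). With GC correction the median of the targets was 0.052 and that of all genes 0.0023. Set against 3NC instead, 8276OV had 28 of the 35 tested targets lower and 7 higher (all genes 41.7% lower and 33.5% higher). Their median log2 fold change there was -0.62, against -0.058 for all genes. GC correction left 25 targets lower and 6 higher, and their median at -0.39. All genes were not counted with the correction in that comparison. How far the targets lay from all genes in 8276OV thus also depended on the control. These comparisons share control libraries, and the list was drawn up with earlier results of these data known.

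Among the targets named were genes of secreted and surface proteins. Spp1 (osteopontin) averaged 69.1 ± 0.158 FPKM in 8276OV and 50.4 ± 2.0 FPKM in 5NC, and 50.04 ± 2.57 FPKM in 8276KD and 181.5 ± 8.03 FPKM in 3NC (SD, n = 3 each). Its log2 fold change was -1.83 ± 0.049 for 5NC against 3NC (adjusted p = 7.35e-12, limma) and -1.84 ± 0.049 for 8276KD against 3NC (adjusted p = 2.82e-11, limma). Both the other control and the knockdown thus had lower Spp1 than the 3 libraries of 3NC, and by a like amount. The matrix metalloprotease gene Mmp10 averaged 0.290 ± 0.121 FPKM in 8276OV, 0.243 ± 0.0971 FPKM in 5NC, 0.657 ± 0.159 FPKM in 8276KD and 4.38 ± 0.223 FPKM in 3NC. It differed by -2.12 ± 0.096 in 5NC against 3NC (adjusted p = 8.74e-10, limma) and by -1.70 ± 0.096 in 8276KD against 3NC (adjusted p = 4.57e-08, limma). Sprr1a, a cornified envelope protein, was listed at 0 in all 3 8276OV libraries and averaged 0.167 ± 0.0586 FPKM in 5NC, 0.487 ± 0.467 FPKM in 8276KD and 4.88 ± 0.825 FPKM in 3NC.

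Other targets fell in 5NC and in 8276KD, each against 3NC. The adhesion receptor Cd44 averaged 30.6 ± 0.945 FPKM in 8276OV and 18.4 ± 0.678 FPKM in 5NC, and 38.4 ± 2.0 FPKM in 8276KD and 49.9 ± 2.06 FPKM in 3NC. As for Fosl1, its mean in 8276KD thus lay below that in 3NC and above that in 5NC. In 5NC against 3NC the log2 fold change was -1.39 for Cd44 (adjusted p = 1.16e-10), -1.06 for the EGF receptor ligand Hbegf (4.59e-09) and -0.77 for cyclin D1, Ccnd1 (8.92e-09). In 8276KD against 3NC it was -0.37 for Cd44 (adjusted p = 1.03e-04), -0.38 for Hbegf (1.94e-04) and -0.31 for Ccnd1 (1.28e-04). These 3 genes differed more from 3NC in 5NC than in 8276KD, and each was higher in 8276KD than in 5NC (log2 fold change 1.02 for Cd44, adjusted p = 4.57e-09, 0.68 for Hbegf, 4.86e-07, and 0.46 for Ccnd1, 1.95e-06). Timp1, a protease inhibitor, differed by a like amount in both, -0.54 in 5NC (adjusted p = 9.53e-06) and -0.64 in 8276KD (6.03e-06), and was not called in 8276KD against 5NC (-0.10, adjusted p = 0.189). Not every target followed: the urokinase receptor gene Plaur was not called in either (-0.14 in 5NC, adjusted p = 0.274, and 0.23 in 8276KD, adjusted p = 0.112). With GC correction Plaur was called lower in 5NC (-0.20, adjusted p = 0.0454) and higher in 8276KD (0.26, adjusted p = 0.0192). Of the most abundant targets Vim was not called (adjusted p = 0.964) and the membrane linker Ezr was 0.60 higher (adjusted p = 2.47e-08) in 5NC than in 3NC. Mmp3, Mmp13 and Plau stayed too low to be tested, with highest values of 0.63, 1.05 and 0.2 FPKM.

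Of 26 other leucine zipper genes, many of which can pair with Fos or Jun proteins, 22 were tested, and in 5NC against 3NC 11 were higher, 4 lower and 7 not called (median 0.13, all genes 0.022, with 30.6% higher and 25.9% lower). In 8276KD against 3NC 6 were higher and 6 lower (median -0.054, all genes -0.0048, with 20.0% higher and 19.5% lower). In 8276OV against 5NC 8 were higher and 11 lower (median -0.11, all genes -0.088, with 30.3% higher and 44.1% lower). With GC correction 7 were higher and 4 lower, where 3115 of all 11197 genes were higher and 3020 lower. Atf3, a stress-induced repressor, averaged 24.6 ± 0.825 FPKM in 8276OV and 19.7 ± 1.34 FPKM in 5NC, and 13.0 ± 0.981 FPKM in 8276KD and 10.8 ± 0.478 FPKM in 3NC. It was 0.80 ± 0.065 higher in 5NC than in 3NC on the log2 scale (adjusted p = 2.39e-07, limma), where Fosl1 was lower. Jdp2, a Jun dimerization protein, was also higher in 5NC (45.5 ± 1.32 FPKM, 26.6 ± 2.02 FPKM in 3NC, adjusted p = 3.57e-06, limma). The small Maf gene Maff was lower in 5NC (20.3 ± 0.930 FPKM, 34.3 ± 1.5 FPKM in 3NC, adjusted p = 2.06e-06, limma) and in 8276KD (22.4 ± 0.815 FPKM, adjusted p = 3.63e-05, limma). Batf3 was not called in either comparison (adjusted p = 0.622 and 0.0863). The most abundant of the list, Atf4, a translation-stress regulator, averaged 456.2 ± 15.4 FPKM in 5NC and 353.0 ± 8.23 FPKM in 3NC.

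The kinases and factors upstream of AP-1 showed no common direction between the controls, with 9 of 29 tested genes higher, 9 lower and 11 not called in 5NC against 3NC (median 0.0059, all genes 0.022, with 30.6% higher and 25.9% lower). In 8276KD against 3NC 5 were higher and 8 lower (median -0.056, all genes -0.0048, with 20.0% higher and 19.5% lower). With GC correction 9 were higher and 8 lower, where 2829 of all 11197 genes were higher and 2589 lower. In 8276OV against 5NC 18 were lower and 5 higher (median -0.39, all genes -0.088, with 44.1% lower and 30.3% higher). With GC correction 13 were lower and 5 higher (median -0.12), where 3020 of all 11197 genes were lower and 3115 higher (median 0.0023). Map2k1 (MEK1) differed by -0.36 in 5NC against 3NC (adjusted p = 5.64e-06, limma), with 49.4 ± 1.98 FPKM in 5NC and 63.6 ± 0.777 FPKM in 3NC. The JNK gene Mapk8 was not called in 5NC (adjusted p = 0.943) or 8276KD (adjusted p = 0.166) against 3NC. In 8276OV against 5NC Mapk8 was 0.42 higher (adjusted p = 2.12e-04, limma), but not called with GC correction (0.072). Srf, the serum response factor that acts on the Fos promoter, was 12.1 ± 1.34 FPKM in 8276KD and 16.2 ± 0.291 FPKM in 3NC (adjusted p = 0.00487, limma). It was lowest in 8276OV, at 8.18 ± 1.3 FPKM, with 15.05 ± 0.91 FPKM in 5NC. That difference was -0.81 (adjusted p = 5.69e-06, limma), and not called with GC correction (0.022).

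Genes that modify AP-1 proteins or mark them for destruction were all 14 tested. In 5NC against 3NC 6 were higher, 3 lower and 5 not called, with a median of 0.12 where all genes had 0.022, 30.6% higher and 25.9% lower. With GC correction 5 were higher and 4 lower, where 3493 of all 11197 genes were higher and 3730 lower. In 8276KD against 3NC 3 were higher and 2 lower (median -0.0060, all genes -0.0048, with 20.0% higher and 19.5% lower). In 8276OV against 5NC 4 were higher and 3 lower (median -0.0078, all genes -0.088, with 30.3% higher and 44.1% lower). Fbxw7, a ubiquitin ligase subunit for Jun, averaged 6.17 ± 0.122 FPKM in 8276KD, 5.14 ± 0.396 FPKM in 5NC and 4.19 ± 0.137 FPKM in 3NC, with an adjusted p of 1.31e-04 for 8276KD and 0.00824 for 5NC, each against 3NC (limma). Cop1, another ligase for Jun, was 0.27 higher in 5NC than in 3NC (adjusted p = 0.00169, limma) and not called in 8276KD (adjusted p = 0.167).

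Of 24 other immediate early genes, 20 were tested, with 6 higher and 9 lower in 5NC against 3NC (median -0.068, all genes 0.022, with 30.6% higher and 25.9% lower). In 8276KD against 3NC 5 were higher and 11 lower (median -0.19, all genes -0.0048, with 20.0% higher and 19.5% lower). In 8276OV against 5NC 4 were higher and 12 lower (median -0.18, all genes -0.088, with 30.3% higher and 44.1% lower). With GC correction 11 were higher and 4 lower (median 0.19). Of all 11197 genes, 3115 were then higher and 3020 lower (median 0.0023), so the balance of all genes moved too. Egr1, like Fos a serum response factor target, averaged 22.4 ± 1.1 FPKM in 8276OV and 21.4 ± 0.458 FPKM in 5NC, and 13.5 ± 0.658 FPKM in 8276KD and 46.8 ± 1.26 FPKM in 3NC (SD, n = 3 each). It fell by 1.72 on the log2 scale in 8276KD against 3NC (adjusted p = 9.28e-11, limma) and by 1.09 in 5NC against 3NC (adjusted p = 1.16e-09, limma). Egr1 was thus highest in 3NC, as Fos, Fosl1, Jun and Junb were, but lowest in 8276KD. Myc was higher in 5NC (34.2 ± 1.0 FPKM) than in 3NC (23.4 ± 0.918 FPKM, adjusted p = 1.23e-05, limma) and lower in 8276KD (17.7 ± 1.11 FPKM, adjusted p = 4.88e-04, limma).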

How the data were processed

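The authors deposited 1 table with a value per gene and library, read here as FPKM from the values (2 decimals, never negative, column sums of 533099 to 561940). No label names the unit, and TPM cannot be told apart with certainty. The genome build was mm10, according to the submitters' processing notes, and the sources used here name no aligner, quantifier, annotation, use of strand or batch. Of the symbols, 27 altered by a spreadsheet were restored by gene ID from RefSeq.

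Genes with at least 1 FPKM in at least 3 libraries (11360) were fitted on log2(FPKM + 1) with limma 3.58.1 in R 4.3.3, with a mean per group over all 12 libraries, trended and robust empirical Bayes, and Benjamini-Hochberg adjustment over all genes tested. Called means an adjusted p under 0.05. With 3 libraries a group, exact permutation p-values cannot go below 0.1, so none was used. A count model was not run, since FPKM are not counts. The implied depth rests on 45 to 85 genes per library with 1 transcript and low values. GC correction removed, per library, a natural spline (5 degrees of freedom) in the GC content of a gene's longest transcript, known for 98.6% of genes tested. The spline was removed with its intercept, so the libraries were also brought to the same mean log2 level. The fit was tested on simulated data.

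The members, gene lists and comparisons were chosen with earlier results of these data known. Named genes were the 4 with the highest mean in each of 5 lists, 24 fixed genes, and for members spanning more than 1 on the log2 scale the 5 nearest genes, of which 3 are not reported here. The overlapping genes Ccdc85b and Prdx2 were named after their values were seen. Alternatives changed the pseudocount (0.1), filter, scaling, GC and length correction, samples, priors, replicate block, control group and single libraries.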

Additional observations from a re-analysis of the deposited data

How the results depend on the processing

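The number of genes called was 8452 for 8276OV against 5NC, 4477 for 8276KD against 3NC and 6414 for 5NC against 3NC, and it stayed within 1.5 times these counts in every alternative run. For the members, 287 of 330 alternative values were classed as unchanged, 24 lost a call and 10 gained one. The other 9 changed sign with a call in the main fit, the alternative or both. A change of sign with no call in either fit was classed as unchanged. For the other named genes 1149 of 1245 were unchanged in this sense, 51 lost a call, 32 gained one and 13 changed sign. Of 275 list counts, 270 stayed within 1.5 times. The members called in 5NC against 3NC numbered 6, but 3 with no filter on low values (Jun at -0.16, Junb at -0.28 and Jund at 0.42 then lost their calls) and 3 to 4 with 1 library left out (3 without the first 3NC library). Jun lost its call there with equal column sums too (-0.12). With GC correction, 8276OV against 5NC turned to 0.51 for Fosl1 and 0.38 for Jun, also with length corrected (0.51 and 0.38) and with the replicate block (0.51 and 0.38), and Fosl2 lost its call with GC and length corrected (-0.055). Fosl1 in 8276OV against 5NC ranged between -0.27 and 0.030 with 1 library left out.

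With 3NC as its control, 8276OV had Fosl2 at 0.0072. With 5NC as its control, 8276KD had Fosl1 at 1.78, Atf3 at -0.56, Maff at 0.13, Cop1 at -0.16, Mmp10 at 0.41, Ccnd1 at 0.46, Cd44 at 1.02, Sprr1a at 0.30 and Hbegf at 0.68. With both controls together it had Fosl1 at 0.00077, Atf3 at -0.16, Ccnd1 at 0.074, Cd44 at 0.33 and Hbegf at 0.15. These signs follow from the difference between 5NC and 3NC, whose cause was not tested. Quantile normalization put Fau at 0.0029 in 5NC against 3NC. The share of called genes that were higher was 40.8% in 8276OV against 5NC, but 52.6% with quantile normalization (which moved the median of all genes to 0.029), 49.6% with median-of-ratios factors and 50.8% with GC correction. In 5NC against 3NC it was 54.2%, but 62.3% with equal column sums.

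Whether the replicate numbers pair the libraries was not settled. Deviations of same-numbered libraries correlated at -0.183 to -0.0276 (8276OV and 5NC), -0.181 to -0.00483 (8276KD and 3NC) and 0.0413 to 0.0883 (5NC and 3NC). With 3 libraries a group, such values cannot show that there was no pairing. With the replicate number as a block, 8407, 4434 and 6380 genes and 4, 4 and 5 members were called, with Jun at -0.16 losing its call in 5NC against 3NC. Depth limits Fosb, and other genes below 1 FPKM were not tested.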
